A study of Mus musculus with 16 samples.

Results

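CD172a+ dendritic cells (DCs) were compared between Ciita-deficient mice and mice with both copies of the gene. The cells were taken as the arrays whose title names CD172a, which gave 8 of the 16 arrays of the series. The series asks how far the loss of Ciita reaches into the transcriptome of classical DCs, and its other 8 arrays hold CD24+ cells of the same mice. Total RNA was hybridized to Affymetrix mouse gene arrays. The 8 CD172a arrays came from 8 B6 mice in 4 groups of 2, set by genotype and tissue. The mice labelled KO were Ciita -/- and those labelled WT were Ciita +/+. All 8 also carried 1 GFP allele of Zbtb46, so no group had both normal copies of that gene. Spleen cells were sorted from mice in homeostasis. Culture cells came from whole bone marrow grown in 5% Flt3l for 9 days, activated with gamma interferon and then with LPS for 4 hours, and sorted. The gamma interferon step is given as 16 hours in one label and 22 hours in another. Neither the age of the mice nor the part of Ciita that was deleted is given in the sources used here.

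Ciita is a coactivator that binds no DNA itself and is recruited to the promoters of MHC class II genes by proteins that sit on their X and Y boxes. The class II molecules pair an alpha and a beta chain, are held by the invariant chain Cd74 until they reach endosomes, and exchange the remnant of Cd74 for peptide with the help of H2-DM, which H2-O restrains. DCs show these peptides to CD4 T cells, and CD172a+ classical DCs are known as the subset most given to that task.

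Among the class II genes whose RefSeq promoter was examined, windows are shown for those that hold a GCAAC, a core of the X box. It is followed on the gene's strand by a GATTGG, the Y box, with 20 to 35 bases between them. These 5 genes all fell in KO cells of each tissue. The windows show matches to cores of the boxes at which Ciita is known to be recruited, and recruitment at them was not tested. Sequences are from RefSeq on GRCm38.p6, written along the gene's strand, with GCAAC and GATTGG in capitals.
H2-Aa: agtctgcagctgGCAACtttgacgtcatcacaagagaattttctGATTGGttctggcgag
H2-Eb1: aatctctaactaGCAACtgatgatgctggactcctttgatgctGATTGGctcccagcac
H2-Eb2: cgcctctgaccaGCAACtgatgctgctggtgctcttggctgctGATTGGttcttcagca
H2-Oa: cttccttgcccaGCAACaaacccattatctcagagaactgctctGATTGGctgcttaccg
H2-Ob: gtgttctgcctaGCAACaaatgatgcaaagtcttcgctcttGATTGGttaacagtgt

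The windows lie at chr17:34287857-34287916 on the minus strand for H2-Aa and, on the plus strand, at chr17:34305764-34305822 for H2-Eb1, chr17:34325531-34325589 for H2-Eb2, chr17:34092291-34092350 for H2-Oa and chr17:34238806-34238862 for H2-Ob. The number of bases between the capitals was 27 in H2-Aa and H2-Oa, 26 in H2-Eb1 and H2-Eb2, and 24 in H2-Ob. GCAAC started 81 bases before the gene start in H2-Aa, 91 in H2-Eb1, 132 in H2-Eb2, 76 in H2-Oa and 87 in H2-Ob. Searched on both strands, GCAAC was in 35.2% and GATTGG in 16.1% of 32841 promoter windows of 300 bases, and the ordered pair in 92 of them (0.28%). The spacing limits were chosen after these windows had been seen, so the match is a description. The pair was present in 68 of 15614 tested genes with a promoter in the table (0.436%). Over both tissues 4 of these 68 fell and 0 rose, with a median change of -0.01. Both H2-DMa windows in the table held no such pair. No promoter window of H2-Ab1, H2-Ea or Cd74 was examined, so whether they hold the pair is not shown.

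The markers were checked before the comparisons. H2-Eb1 and H2-Aa had log2 signals of 13.47 to 14.08 in the 4 WT arrays, near the highest value of the data (14.6). Sirpa, which encodes CD172a, lay between 11.07 and 12.70 in the 8 arrays and between 8.36 and 9.17 in the CD24+ arrays, whereas Xcr1, a marker of the other classical DC subset, lay between 6.27 and 6.82 against 9.58 to 12.17. Some markers split the sorts less in culture. Cd24a lay between 12.98 and 13.16 in the culture arrays of both sorts, and Irf8 between 13.32 and 13.58. The mean of 19 markers of the CD172a+ subset was 7.63 to 7.78 in CD172a+ and 7.42 to 7.52 in CD24+ culture arrays. In spleen it was 10.54 to 10.56 against 8.57 to 8.77. The mean of 15 markers of the CD24+ subset still split the cultured sorts, at 8.84 or less against 10.63 or more. In culture several markers of spleen CD172a+ DCs were dim: Clec4a4 lay between 4.96 and 5.63, Clec10a between 4.82 and 5.17, and Itgax, which encodes CD11c, between 7.86 and 8.66. No list of markers of other cell types had a member past the threshold in any genotype comparison. Array medians were 7.29 to 7.30 in spleen and 6.87 to 6.92 in culture, and levels are not compared between tissues. Xist was at 12.05 to 12.43 in spleen and 5.10 to 5.29 in culture, and the Y-linked Eif2s3y at 3.82 to 4.00 and 8.15 to 8.83. The sex of the mice thus differed between the tissues but not between genotypes, and its part in any difference between tissues cannot be told apart from theirs. The 2 KO arrays of culture differed by more than 2-fold in 44 genes (0.221%), against 9 to 11 genes in the other pairs.

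Ciita itself, on chromosome 16, fell in KO cells of culture and did not pass in spleen. In culture its log2 signals were 10.15 and 10.62 in WT and 8.35 and 7.17 in KO. In spleen they were 11.40 and 11.27 in WT and 11.28 and 10.93 in KO. The culture groups were well apart, while the first KO array of the spleen lay between its 2 WT arrays. Its change (KO minus WT, log2, with the standard error, SE) was -2.63 ± 0.31 in culture (limma adjusted p = 0.0198) and -0.23 ± 0.31 in spleen (adjusted p = 0.979). The difference between these changes was -2.39 ± 0.44 and did not pass (adjusted p = 0.294). Since the deleted part is not given, the Ciita probe set may lie outside it and checks nothing about the genotype labels. Across both tissues Ciita gave -1.43 ± 0.44 (adjusted p = 0.586). The culture call was lost when the 4 culture arrays were fitted alone (adjusted p = 0.270).

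Over both tissues, with tissue as a blocking term, 11 of 19938 genes (0.0552%) passed an adjusted p of 0.05 in KO against WT CD172a+ cells. Of these 10 (0.0502%) were lower and 1 (0.00502%) was higher, and 5 changed by at least 2-fold, all of them class II genes. Of the 9 measured class II genes 6 fell, with a median over the 9 of -2.77 against 0.01 over all genes. In bulk RNA of a sort, fewer cells that express a gene and less RNA per cell cannot be told apart.

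H2-Eb1, the beta chain of I-E, had the largest fitted change of the 11 genes. In spleen its signals were 14.08 and 14.05 in WT against 10.68 and 11.16 in KO, and in culture 13.48 and 13.47 against 8.02 and 7.90. WT arrays were nearly the same within each tissue, and the lowest WT array stood more than 2 log2 units above the highest KO array. The change over both tissues was -4.33 ± 0.39, or 20.1-fold (adjusted p = 0.00263). The WT signals of H2-Eb1, H2-Aa, H2-Ab1 and Cd74 lay near the highest value of the data, and whether their folds are compressed there was not tested.

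H2-Aa and H2-Ab1 encode the alpha and beta chains of I-A, the class II molecule that B6 mice display. H2-Aa had signals of 13.86 and 13.82 in WT and 11.11 and 11.36 in KO spleen, and of 13.52 and 13.51 in WT and 9.87 and 9.78 in KO culture. H2-Ab1 had 14.07 and 13.97 in WT and 11.26 and 11.70 in KO spleen, and 13.69 and 13.68 in WT and 10.25 and 9.38 in KO culture. Neither gene overlapped between genotypes, and for H2-Ab1 the KO arrays were spread more widely than the WT arrays in both tissues. H2-Aa fell by 3.15 ± 0.18, or 8.88-fold (adjusted p = 0.000114), and H2-Ab1 gave -3.20 ± 0.27, or 9.22-fold (adjusted p = 0.00173).

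H2-Eb2, a second gene for an E beta chain, had 11.03 and 10.88 in WT against 8.03 and 8.51 in KO spleen, and 8.97 and 8.85 against 6.24 and 5.86 in culture. Its change of -2.77 ± 0.12 had the smallest p of all genes (adjusted p = 8.88e-06). H2-Ea, the E alpha chain, which mice of the B6 haplotype are known not to express, stayed dim at 5.41 to 5.95 in the 8 arrays. Its groups overlapped in culture, and its change was -0.10 ± 0.07 (adjusted p = 0.796). Cd74 (chromosome 18), which is not next to the class II genes, fell by the least of the called class II genes. It had 13.82 and 13.78 in WT against 12.94 and 13.00 in KO spleen, and 13.42 and 13.40 against 12.90 and 12.76 in culture. KO cells thus kept a bright Cd74 signal, and the change of -0.71 ± 0.07 was 1.63-fold (adjusted p = 0.00301).

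The genes for the peptide editors moved unevenly. H2-Ob, the beta chain of H2-O, had 12.43 and 12.45 in WT and 10.05 and 9.66 in KO spleen, and 10.58 and 10.95 in WT and 7.09 and 6.36 in KO culture. It fell by 3.32 ± 0.28, or 9.96-fold (adjusted p = 0.00173). H2-Oa, the alpha chain, had 13.19 and 13.28 against 12.22 and 12.09 in spleen, and 11.62 and 11.72 against 8.56 and 8.51 in culture. H2-DMa, the alpha chain of H2-DM, had 13.31 and 13.28 against 11.99 and 12.12 in spleen, and 12.09 and 12.18 against 8.89 and 8.90 in culture. Both showed no overlap between genotypes and tight replicates, with a much larger gap in culture. Because the gap differed, the additive model counted it as spread, and over both tissues neither passed (-2.24 ± 0.32, adjusted p = 0.0749, for H2-DMa and -2.11 ± 0.33, adjusted p = 0.110, for H2-Oa). Taken as the mean of the 2 tissue effects from a fit with 4 group means, both passed (adjusted p = 6.05e-08 and 1.31e-07).

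**Figure D1:**
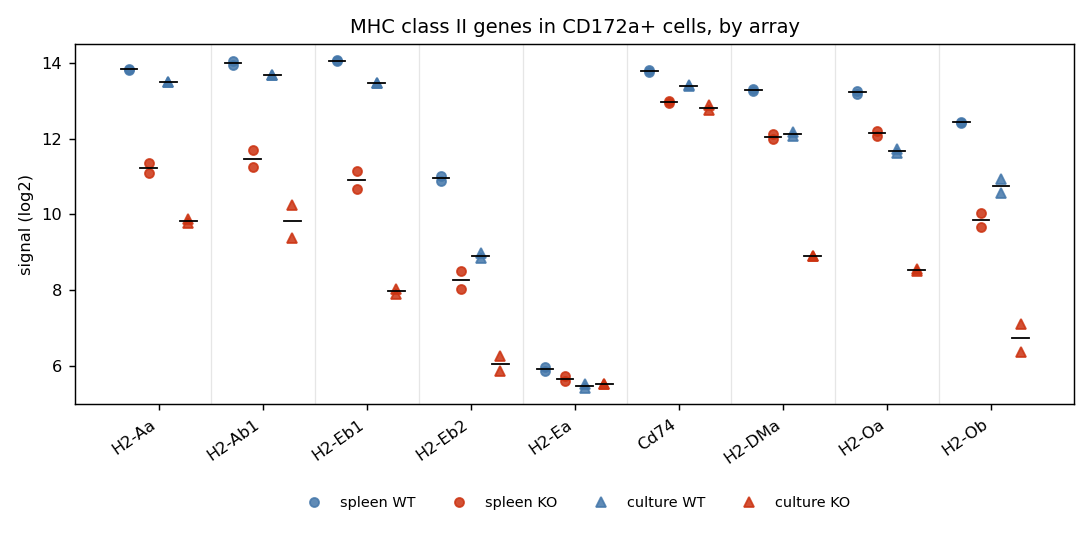
Log2 signal of the 9 measured class II genes in each CD172a+ array, with circles for spleen, triangles for culture, blue for WT, red for KO and a bar at each group mean (n = 2). KO arrays lie below WT arrays of their tissue for every gene except H2-Ea, from 0.58 for Cd74 to 5.52 for H2-Eb1, both in culture.

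KO arrays were all below WT arrays in both tissues for 8 of the 9 class II genes. Among all genes 663 (3.33%) were all below and 824 (4.13%) all above. All 11 called genes also separated in their direction, but they were picked by p on these same arrays, so their separation is no support. With a variance trend and robust settings H2-Ab1, H2-Eb1 and H2-Ob missed the threshold over both tissues (adjusted p = 0.0710, 0.0978 and 0.0710), although each passed in each tissue. The other 3 (H2-Aa, H2-Eb2 and Cd74) passed there, and each of the 6 passed without any 1 of the 8 arrays.

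The remaining called genes changed by less than 2-fold. Of these 5, 3 lie on chromosome 16 with Ciita. Dexi is its next tested gene on one side and Clec16a, which encodes a protein of autophagy and mitophagy, the one after. Dexi had 8.84 and 8.87 in WT against 8.28 and 8.42 in KO spleen, and 8.66 and 8.67 against 7.85 and 7.77 in culture. Clec16a, the only gene that rose, had 8.77 and 8.74 in WT against 9.34 and 9.22 in KO spleen, and 8.39 and 8.51 against 8.82 and 8.84 in culture. Both separated the genotypes in each tissue, in opposite directions. Dexi changed by -0.68 ± 0.08 (adjusted p = 0.0153) and Clec16a by 0.46 ± 0.06 (adjusted p = 0.0335).

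On the other side of Ciita the next tested gene, Tvp23a, had 7.34 and 7.25 against 7.03 and 6.82 in spleen and 7.24 and 7.11 against 6.49 and 6.54 in culture. Its change of -0.52 ± 0.08 did not pass (adjusted p = 0.0928). Socs1, an inhibitor of cytokine signalling that lies beyond Clec16a, gave -0.16 (adjusted p = 0.745). Among the 10 tested genes on each side of Ciita, 4 of 20 had an unadjusted p under 0.05, against 66 of 649 (10.2%) on the whole chromosome and 1402 of 19938 (7.03%) in all. The order of genes is that of RefSeq.

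Ntan1, an enzyme that deamidates N-terminal asparagine, lies 29 tested genes from Ciita. It had 10.03 and 10.12 in WT against 9.23 and 9.19 in KO spleen, and 9.40 and 9.43 against 9.06 and 8.64 in culture, a change of -0.71 ± 0.10 (adjusted p = 0.0453). Off that chromosome, Zbtb7a, a zinc finger transcriptional repressor, had 9.31 and 9.33 against 8.59 and 8.90 in spleen and 8.65 and 8.74 against 7.99 and 8.17 in culture. Its change was -0.59 ± 0.08 (adjusted p = 0.0335). Arrdc4, an arrestin domain protein, gave -0.39 ± 0.05 (adjusted p = 0.0453), from 9.48 to 9.76 in WT and 9.05 to 9.39 in KO arrays. All 3 genes separated the genotypes within each tissue by less than a single log2 unit.

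These 5 calls were easily lost when an array was left out, while their fitted changes moved little. Over all alternatives the changes lay from 0.42 to 0.49 for Clec16a and from -0.74 to -0.63 for Dexi. They lay from -0.41 to -0.37 for Arrdc4, -0.66 to -0.54 for Zbtb7a and -0.83 to -0.66 for Ntan1. Of the 8 fits with 1 array left out, Dexi passed in 3, Zbtb7a in 2, Ntan1 in 1, and Clec16a and Arrdc4 in 0. The lowest count over both tissues was 6, without culture WT replicate 1 or 2 or without spleen WT replicate 2. It was 7 without culture KO replicate 1, spleen KO replicate 1 or spleen WT replicate 1.

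**Figure D2:**
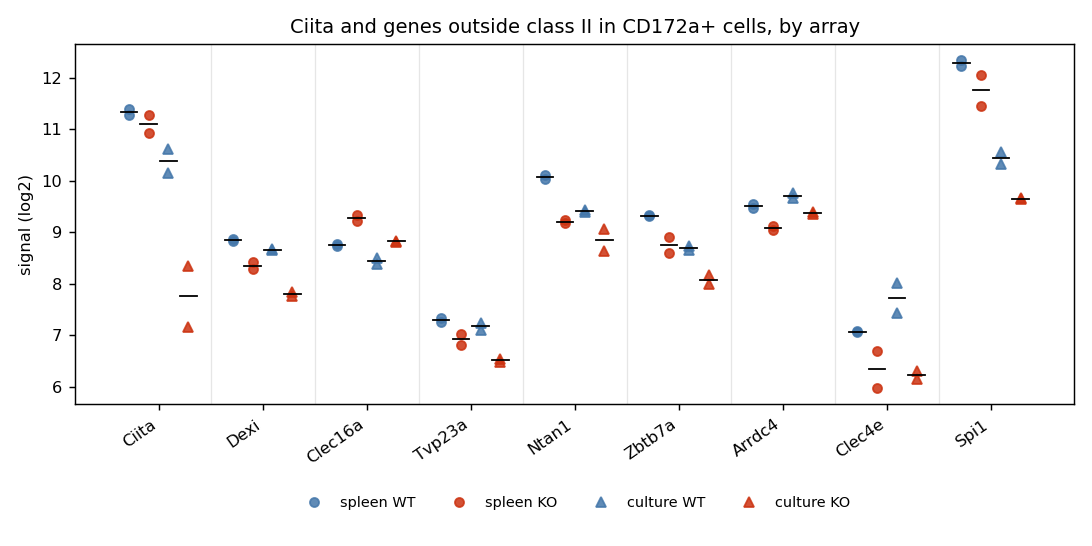
Log2 signal of Ciita and 8 genes outside class II in each CD172a+ array, with circles for spleen, triangles for culture, blue for WT, red for KO and a bar at each group mean (n = 2). Ciita is low in culture KO arrays (7.17 and 8.35), Clec16a is higher in KO, and the other genes are lower in KO by 0.39 to 1.11 over both tissues.

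The genes with the next smallest p did not pass over both tissues. They included Sdf2l1 (-0.35 ± 0.06, adjusted p = 0.170) and Creld2 (-0.47 ± 0.08, adjusted p = 0.203), proteins of the endoplasmic reticulum that its stress induces. Clec4e, the receptor Mincle, had 7.06 and 7.08 in WT and 5.98 and 6.70 in KO spleen, and 8.01 and 7.44 in WT and 6.31 and 6.15 in KO culture. Its KO arrays were all below the WT arrays, and its change was -1.11 ± 0.20 (adjusted p = 0.224). Csf2ra, a chain of the GM-CSF receptor, gave -0.32 ± 0.06 (adjusted p = 0.224), Heg1 -0.35 ± 0.06 (adjusted p = 0.224), F630111L10Rik -0.43 ± 0.07 (adjusted p = 0.110) and Vmn2r90 -0.63 ± 0.10 (adjusted p = 0.107). Spi1, the myeloid transcription factor PU.1, gave -0.66 ± 0.12 (adjusted p = 0.224).

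In spleen 17 genes (0.0853%) passed, of which 16 (0.0802%) were lower, 1 (0.00502%) was higher and 10 changed by at least 2-fold. Class II genes made up 8 of the 17, and all of these but Cd74 lie on chromosome 17. The class II changes were -3.14 ± 0.14 for H2-Eb1, -2.69 ± 0.16 for H2-Eb2, -2.61 ± 0.09 for H2-Aa, -2.59 ± 0.22 for H2-Ob, -2.54 ± 0.24 for H2-Ab1, -1.23 ± 0.08 for H2-DMa, -1.08 ± 0.08 for H2-Oa and -0.83 ± 0.08 for Cd74. Their median over the 9 measured genes was -2.54, against -0.00 over all genes. Adjusted p ran from 5.41e-06 for H2-Aa to 0.00347 for H2-Ab1 and Cd74, and H2-Ea did not pass (-0.25 ± 0.08, adjusted p = 0.667).

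Among the other spleen genes, H2-M2 and BC051142 lie in or near the MHC region. H2-M2, a nonclassical class I gene, had 10.10 and 10.26 in WT and 8.71 and 8.16 in KO arrays (-1.74 ± 0.16, adjusted p = 0.00316). BC051142 is 4 tested genes from H2-Eb2, past H2-Ea, Btnl2 and Btnl1, and had 7.54 and 7.48 in WT and 6.42 and 6.42 in KO (-1.09 ± 0.07, adjusted p = 0.000272). The KO arrays of both genes lay far below the WT arrays. Between H2-DMa and H2-Ob, the class I processing genes Psmb9, Tap1, Psmb8 and Tap2 changed by -0.12, -0.04, 0.00 and 0.15 in spleen, none past the threshold.

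Trem3 and Trem1 were the members of their family past the threshold in KO spleen, both lower. Trem3 had 9.27 and 9.10 in WT and 8.33 and 8.44 in KO (-0.80 ± 0.09, adjusted p = 0.0102), and Trem1, an activating receptor of myeloid cells, 8.79 and 8.76 against 7.83 and 8.15 (-0.78 ± 0.11, adjusted p = 0.0484). Both lie on chromosome 17, but Trem1 is not close to the class II genes. Its promoter window starts at chr17:48232489 and that of H2-Eb2 at chr17:34325425. Trem3 and Trem1 were 2 of 15 genes in a list of Trem and paired myeloid receptors, whose median was 0.01. At an unadjusted p under 0.05, 4 of the 15 were lower and 0 higher. Among the 4 was Treml4 (limma unadjusted p = 0.00224), which did not pass and is also on the list of monocyte and macrophage markers. Trem2, Treml1 and Treml2 gave -0.02, 0.09 and 0.15 there. Over the same arrays the mean of 17 monocyte and macrophage markers was 9.45 and 9.85 in WT and 9.21 and 9.55 in KO, overlapping. Their median change was -0.34, 14 of 17 were negative (50.7% of all genes), and 4 of 17 were lower at an unadjusted p under 0.05 (3.28% of all genes, and 5.88% in either direction). The part of such cells in the Trem values was not tested. The Trem1 call was lost in 7 of the 8 fits that left out an array, and the Trem3 call without any 1 of the 4 spleen arrays.

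Of the remaining spleen calls, Tmem231, a membrane protein of the ciliary transition zone, changed by -0.96 ± 0.11 (adjusted p = 0.0102), Tspyl5 by -0.86 ± 0.10 (adjusted p = 0.0175), B230217C12Rik by -0.84 ± 0.09 (adjusted p = 0.00557) and Asb2, a substrate adaptor of a ubiquitin ligase, by -0.69 ± 0.08 (adjusted p = 0.0130). Gp2, a membrane glycoprotein that binds bacterial fimbriae, was the 1 gene that rose, from 7.11 and 7.31 in WT to 8.17 and 8.29 in KO (1.02 ± 0.12, adjusted p = 0.0131). None of these 5 reached an adjusted p of 0.05 in culture, where their changes lay between -0.12 and 0.04. Tmem231 (means of 5.66 in WT and 5.69 in KO) and Gp2 (5.38 and 5.39) were about as dim there as H2-Ea (5.45 and 5.51). A loss of Tmem231 may therefore not have been measurable in culture. Tspyl5, B230217C12Rik and Asb2 were brighter, with culture WT means of 6.95, 6.50 and 7.42. The spleen count was 6 without spleen WT replicate 2, and H2-Eb1, H2-Eb2, H2-Aa, H2-DMa, H2-Oa and BC051142 passed without any 1 of the 8 arrays.

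In culture 17 genes (0.0853%) passed, again 16 (0.0802%) lower and 1 (0.00502%) higher, with 10 of at least 2-fold. The fitted changes in class II genes were larger in size than in spleen for all but Cd74 and H2-Ea. They were -5.52 ± 0.14 for H2-Eb1, -4.05 ± 0.22 for H2-Ob, -3.87 ± 0.24 for H2-Ab1, -3.69 ± 0.09 for H2-Aa, -3.24 ± 0.08 for H2-DMa, -3.14 ± 0.08 for H2-Oa, -2.86 ± 0.16 for H2-Eb2 and -0.58 ± 0.08 for Cd74. H2-Eb1 was 45.7-fold lower. Adjusted p ran from 7.31e-08 for H2-DMa, H2-Eb1 and H2-Aa to 0.0418 for Cd74, and H2-Ea gave 0.06 ± 0.08 (adjusted p = 0.920). The median over the 9 genes was -3.24, against 0.02 over all genes. At an unadjusted p under 0.05 culture held 1882 genes (9.44%).

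Beside Ciita and Dexi (-0.85 ± 0.08, adjusted p = 0.00370), 7 other genes passed in culture. Hpgds, the prostaglandin D synthase of blood cells, had 7.28 and 7.18 in WT and 6.31 and 5.84 in KO (-1.15 ± 0.13, adjusted p = 0.0176). Clec4a1, a C-type lectin receptor, had 7.68 and 7.32 against 6.61 and 6.30 (-1.05 ± 0.13, adjusted p = 0.0299). Pld4, an exonuclease of endolysosomes, had 7.45 and 7.24 against 6.56 and 6.47 (-0.82 ± 0.09, adjusted p = 0.00906). For all 3 genes the KO arrays were below the WT arrays, the second KO array being the lower of the pair.

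Mylip, a ubiquitin ligase that acts on the LDL receptor, changed by -0.90 ± 0.12 (adjusted p = 0.0418), Vmn2r90, a vomeronasal receptor gene on chromosome 17, by -0.88 ± 0.08 (adjusted p = 0.00370), and Arhgdib by -0.68 ± 0.08 (adjusted p = 0.0150). Calcrl, a receptor of the calcitonin receptor family, rose from 7.21 and 7.54 in WT to 8.13 and 8.17 in KO (0.78 ± 0.11, adjusted p = 0.0470). When the 4 culture arrays were fitted alone, 7 genes passed, the class II genes other than Cd74 and H2-Ea. The culture count also rested on single arrays: it was 7 without culture WT replicate 1, 10 without spleen WT replicate 1 or 2, and 533 without culture KO replicate 1, where the lone KO array is assumed to vary like the other groups.

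The lists called in the 2 tissues, 17 genes each, shared 8 genes, which is 8 of 17 of either list. The shared genes were the 8 class II genes other than H2-Ea. A call in 1 tissue alone is no sign of a difference, so the difference was tested itself, as the culture change minus the spleen change. It passed in 4 genes (0.0201%), 3 of them lower (0.015%) and 1 higher (0.00502%), with 1444 (7.24%) at an unadjusted p under 0.05. H2-Eb1 gave -2.37 ± 0.19 (adjusted p = 0.00285), H2-Oa -2.05 ± 0.12 and H2-DMa -2.01 ± 0.11 (adjusted p = 0.000192 for both), the loss being larger in culture. BC051142 went the other way, with 1.02 ± 0.10 (adjusted p = 0.0128), but its culture arrays (5.65 and 5.67 in WT, 5.62 and 5.57 in KO) lay within the range of H2-Ea, 5.41 to 5.95. With no WT signal above that range, a loss of BC051142 may not have been measurable in culture. How low its probe set can read was not tested, and Vmn2r90, called in culture, had a KO mean of 5.32 there. The value of BC051142 is thus not read as a difference between tissues.

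Other class II genes did not pass this test. H2-Aa gave -1.08 ± 0.13 (adjusted p = 0.0582), H2-Ob -1.46 ± 0.31 (adjusted p = 0.387), H2-Ab1 -1.33 ± 0.34 (adjusted p = 0.522), Cd74 0.25 ± 0.11 (adjusted p = 0.685) and H2-Eb2 -0.17 ± 0.23 (adjusted p = 0.906). The median over the 9 genes was -1.33, against 0.02 over all genes. Tissue here stands for homeostatic spleen against activated culture and for the sex of the mice, which cannot be told apart. H2-DMa and H2-Oa passed without any 1 of the 8 arrays. H2-Eb1 was lost without spleen WT replicate 2, when 2 genes passed, BC051142 in 6 of the 8 fits, and 269 genes passed without culture KO replicate 1.

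**Figure D3:**
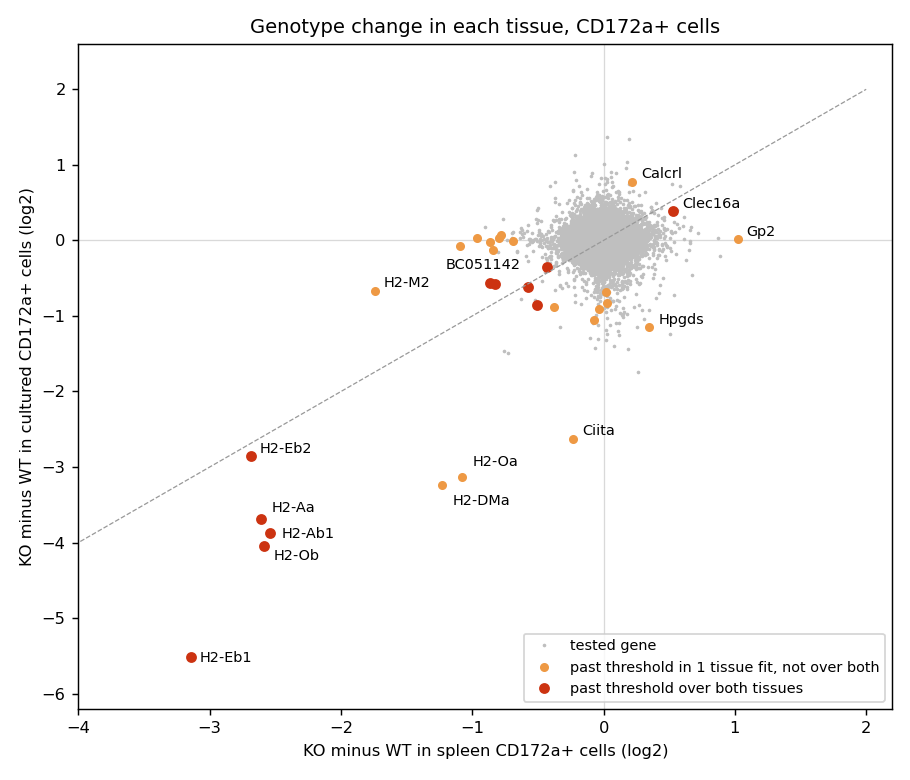
Change KO minus WT (log2) in spleen CD172a+ cells on the horizontal axis and in cultured CD172a+ cells on the vertical axis for each tested gene (grey), with genes past the threshold over both tissues in red, those past it in 1 tissue fit only or in both tissue fits but not over both in orange, and a dashed line of equal change. H2-Eb1, H2-DMa and H2-Oa lie far below the dashed line, H2-Eb2 lies near it, and BC051142 and Gp2 lie along the horizontal axis.

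The CD24+ cells of the same mice allowed a test of whether the loss differed between the sorts. For each mouse the CD24+ signal was subtracted from the CD172a+ signal, and the genotypes were compared over 8 mice with tissue as a blocking term. The difference passed in 2 genes (0.01%), both chains of class II molecules and both lower in CD172a+ cells. For H2-Aa the CD172a+ minus CD24+ values were 0.14 and 0.04 in WT and -2.09 and -1.92 in KO spleen, and -0.11 and -0.03 in WT and -3.02 and -2.64 in KO culture. WT mice thus had near equal H2-Aa in both sorts, and every KO mouse had less in CD172a+ cells. The WT signals lay near the highest value of the data, and whether a difference between the sorts is compressed there was not tested. The genotype by subset difference was -2.43 ± 0.14 (adjusted p = 0.000207).

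H2-Eb1 had 0.03 and -0.01 in WT and -1.18 and -1.29 in KO spleen, and -0.25 and -0.23 in WT and -2.53 and -2.00 in KO culture. Its difference was -1.64 ± 0.16 (adjusted p = 0.0165), and it passed in 3 of the 8 fits that left out a mouse, whereas H2-Aa passed in all 8. H2-Ab1, the partner of H2-Aa, had 0.08 and -0.02 in WT and -0.72 and -0.48 in KO spleen, and -0.16 and -0.09 against -1.38 and -1.74 in culture. These groups did not overlap, but the difference of -1.03 ± 0.16 did not pass (adjusted p = 0.399).

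H2-DMa stood apart in culture: it had -0.15 and -0.16 in WT and -0.56 and -0.52 in KO spleen, and -0.97 and -0.96 in WT and -3.34 and -2.97 in KO culture. Over both tissues its difference was -1.29 ± 0.30 (adjusted p = 0.941). In a fit with 4 group means, H2-Ab1 and H2-DMa passed as well, and 4 genes were called. For H2-Ob the difference was -0.51 ± 0.14, for H2-Eb2 -0.74 ± 0.21 and for H2-Oa 0.42 ± 0.13 (adjusted p = 0.941 for each). Cd74 gave -0.11 ± 0.07 (adjusted p = 0.941). Outside class II, Clec4e had the next smallest p, with -1.27 ± 0.16 (adjusted p = 0.0818). At an unadjusted p under 0.05 this comparison held 1022 genes (5.13%).

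Whether the gap between the sorts differed between tissues was tested too. In limma 0 genes passed (0%), with 928 (4.65%) at an unadjusted p under 0.05. H2-DMa had the smallest p, with -1.80 ± 0.18 (adjusted p = 0.0989).

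**Figure D4:**
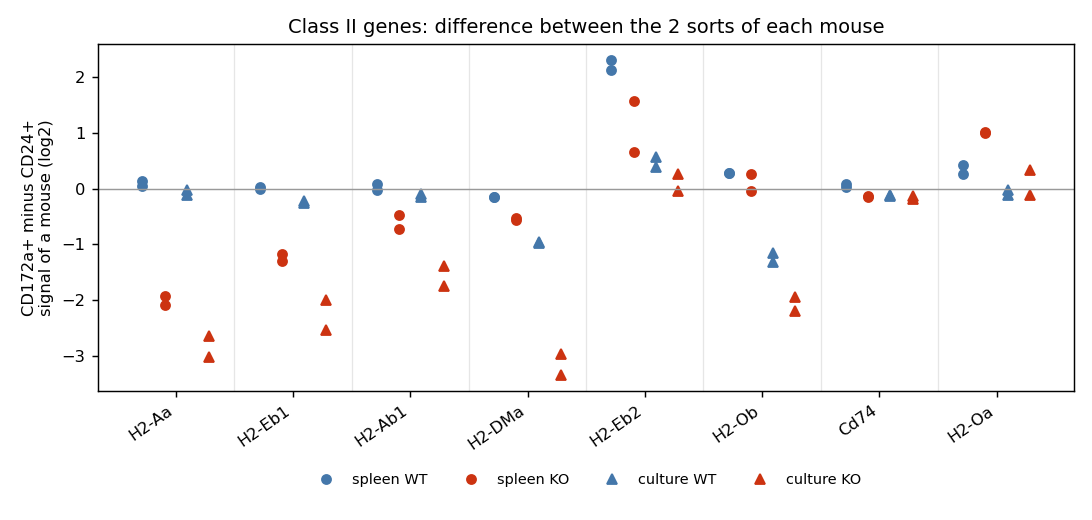
CD172a+ minus CD24+ log2 signal of each mouse for 8 class II genes, with circles for spleen, triangles for culture, blue for WT and red for KO, 2 mice per group. For H2-Aa the 4 KO mice lie between -3.02 and -1.92 and the 4 WT mice between -0.11 and 0.14, while for Cd74 all 8 mice lie between -0.19 and 0.08.

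Genes that work beside Ciita and class II gave few calls. Of 7 measured class II promoter factors 0 passed in limma over both tissues, and 1 had an unadjusted p under 0.05 (Rfx5, which binds the X box, -0.31 ± 0.09, adjusted p = 0.575). Of 10 genes for the proteases and other proteins of class II peptide processing 0 passed and 0 had an unadjusted p under 0.05, with a median of -0.01. Of 12 genes of class I presentation 0 passed and 1 had such a p, also with a median of -0.01. Nlrc5, the class I transactivator and a relative of Ciita, gave 0.27 ± 0.11 (adjusted p = 0.694). Of 15 genes reported elsewhere as Ciita targets outside class II 0 passed and 2 had such a p, with a median of 0.04. Among all genes 7.03% had such a p over both tissues. Plxna1, a semaphorin receptor among them, had 9.17 and 9.25 in WT and 9.54 and 9.78 in KO culture, and its change there of 0.45 ± 0.09 did not pass (adjusted p = 0.154).

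No marker of DC identity passed over both tissues or in either. Of 19 markers of the CD172a+ subset 0 passed over both tissues, with a median of -0.05. An unadjusted p under 0.05 was held by 3 of them, against 7.03% of all genes. Sirpa changed by -0.01 ± 0.07 and Irf4, a transcription factor of this subset, by 0.06 ± 0.07. Of 15 markers of the CD24+ subset 0 passed and 2 had such a p, with a median of -0.11. Of 15 genes of classical DC identity 0 passed and 3 had such a p, with a median of -0.09, Zbtb46 at 0.11 ± 0.07 and Flt3 at 0.15 ± 0.08. In culture 4 of the 19, 6 of the 15 and 5 of the 15 genes were lower at an unadjusted p under 0.05 (3.81% of all genes). There Itgam, which encodes CD11b, had 7.87 and 8.16 in WT and 7.23 and 6.61 in KO (-1.09 ± 0.19, adjusted p = 0.103). Itgax gave -0.56 ± 0.13 (adjusted p = 0.166) and Spi1 -0.79 ± 0.17 (adjusted p = 0.159). DC maturation genes (19, median 0.03) and LPS and NF-kB response genes (22, median -0.05) had 0 members past the threshold over both tissues. Gamma interferon response genes (14, median 0.01) also had 0. In the same order 3, 4 and 2 genes had an unadjusted p under 0.05, against 7.03% of all genes.

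Interferon-stimulated genes leaned to higher values in KO without passing. All 17 measured genes of the type I interferon response list had a positive change over both tissues (54.0% of all genes), with a median of 0.28 against 0.01 over all genes. In limma 0 passed, while 14 were higher at an unadjusted p under 0.05 (3.96% of all genes). The list was chosen with earlier results of these data known, so these counts are a description. The mean of the 17 genes was 9.44 and 9.46 in WT and 9.87 and 9.90 in KO spleen, and 11.47 and 11.73 in WT and 11.77 and 11.70 in KO culture. The spleen groups were apart and the culture groups overlapped.

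Ifit3, an interferon-induced protein, had 10.31 and 10.28 in WT and 11.28 and 11.06 in KO spleen (0.87 ± 0.16, adjusted p = 0.211), and 0.03 ± 0.16 in culture. Ifit1 gave 0.57 ± 0.10 in spleen (adjusted p = 0.126). Usp18, which damps the interferon receptor, had 10.45 and 10.45 against 10.95 and 10.92 (0.48 ± 0.07, adjusted p = 0.0646). The spleen median of the list was 0.43 and the culture median 0.12, and 0 of its genes passed the test of the difference between tissues.

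Genes of the unfolded protein response leaned the other way. Of 17 measured genes 16 had a negative change over both tissues (46.0% of all genes), with a median of -0.19. In limma 0 passed, while 10 were lower at an unadjusted p under 0.05 (3.07% of all genes). This list too was chosen with earlier results known, and its counts are a description. The list mean was 10.79 and 10.80 in WT and 10.60 and 10.64 in KO spleen, and 9.63 and 9.65 in WT and 9.44 and 9.31 in KO culture. These groups did not overlap in either tissue, and KO arrays were all below WT arrays in both tissues for 9 of the 17 genes (against 3.33% of all genes). Calr, the chaperone calreticulin, had 10.79 and 10.81 against 10.38 and 10.55 in spleen and 9.91 and 9.76 against 9.54 and 9.32 in culture (-0.37 ± 0.07, adjusted p = 0.224). Pdia6, a disulfide isomerase, gave -0.31 ± 0.09 (adjusted p = 0.575), and Atf4 0.02 (adjusted p = 0.946). In CD24+ cells the list mean was also lower in KO. It was 11.16 and 11.14 in WT and 10.91 and 10.95 in KO spleen, and 10.78 and 11.08 against 10.18 and 9.78 in culture.

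**Figure D5:**
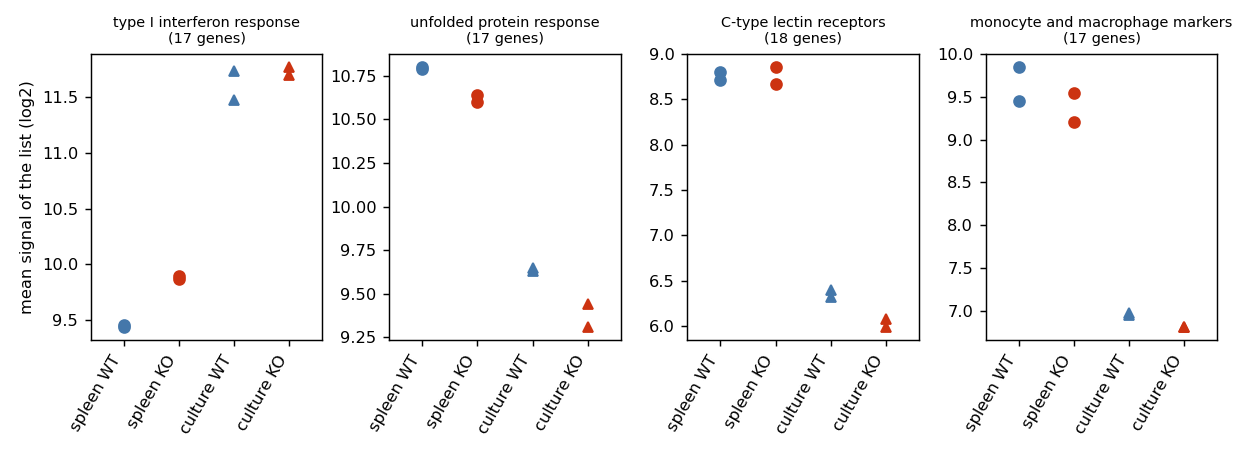
Mean log2 signal over the genes of 4 lists in each CD172a+ array, with circles for spleen, triangles for culture, blue for WT and red for KO, each panel on its own scale. The type I interferon list is higher in both KO arrays of spleen (9.87 and 9.90 against 9.44 and 9.46), the unfolded protein response list is lower in KO in both tissues, and the monocyte and macrophage list overlaps between genotypes in spleen.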

How the data were processed

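The authors deposited 1 log2 signal per probe set and array, whose unit is taken from their range (3.06 to 14.6). Their background correction and normalization are not given in the sources used here. Of 30177 probe sets 21789 had 1 gene symbol, and the one with the highest mean was kept per gene, leaving 19938 genes. Tests used limma 3.58.1 in R 4.3.3 (lmFit, eBayes), 2-sided, with Benjamini-Hochberg adjustment over all genes: genotype with tissue as a block over the 8 CD172a+ arrays, 4 group means for each tissue and their difference, and the difference between the 2 sorts of each mouse. The fits over both tissues, in each tissue and between the sorts were tested on simulated data. The tests of a difference between tissues were not.

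Members and lists were chosen with earlier results of these data known. Named genes were Ciita, measured class II genes, genes past the threshold, genes of smallest p up to 20, the 2 members of each list with the largest change and cell type markers. Psmb9, Tap1, Psmb8 and Tap2, Socs1, Usp18, Ifit1, Calr, Pdia6 and Atf4 were picked after their values were seen. The H2-Oa promoter was added to those of class II genes past the threshold over both tissues. Alternatives covered normalization, filters, probe sets, variance models, left-out arrays and a replicate block. The number of arrays limits the precision, and mice were separate animals.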

Additional observations from a re-analysis of the deposited data

Results flagged for a closer look

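In CD172a+ cells 4 genes had a genotype effect that differed between culture and spleen by a direct test in limma. The culture minus spleen difference was -2.37 for H2-Eb1, -2.05 for H2-Oa and -2.01 for H2-DMa, and 1.02 for BC051142. For the class II genes the loss was larger in cultured cells. BC051142 lay in culture within the range of H2-Ea in WT and KO alike. A loss may not have been measurable there, and its value is not read as a difference.

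Between the sorts of the same mice 2 genes had a genotype effect that differed by a direct test in limma. The CD172a+ minus CD24+ difference was -2.43 for H2-Aa and -1.64 for H2-Eb1, and for both genes 4 of 4 KO mice lay below every WT mouse.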

How the results depend on the processing

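Among the called genes, and the class II genes over both tissues, none changed direction under the alternatives. The other genes named in the text were not followed through them. Over both tissues, 11 genes passed, against 4 with a variance trend and robust settings, 18 as the mean of the 2 tissue effects from 4 group means, and 6 to 10 with 1 array left out. The count was 17 in spleen, with 6 to 19 for left-out arrays, and 17 in culture, with 7 from its 4 arrays alone and 7 to 533 for left-out arrays. It was 4 for the difference between tissues (2 to 269) and 2 for the genotype by subset difference (1 to 2, and 4 with 4 group means, a fit chosen after seeing the data). For the difference between tissues of the latter it was 0 (0 to 4). The alternatives other than these and the replicate block left the counts within 1.5 times. Replicate numbers did not pair the samples: the correlation of deviations of same-numbered KO and WT arrays was 0.0419 in spleen and -0.076 in culture. With a replicate block 3 genes passed over both tissues, 11 in spleen and 1 for the genotype by subset difference. With 2 arrays a group, small changes are hard to tell from array spread.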

Other observations

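Among the members with the largest changes of their lists, several had their lowest or highest culture value in the second KO array. Of these, 3 low genes and 1 high gene are given here. Itgam, Clec4e, Clec4a1 and Msmo1, given elsewhere in the text, were lowest there too. The means of the lists of the 3 low genes given here differed less between the KO arrays. The LPS and NF-kB list had 9.78 and 9.79, the Trem and paired receptor list 7.70 and 7.62, and the monocyte and macrophage list 6.81 and 6.81. Lilrb4a, an inhibitory receptor, had 9.49 and 10.05 in WT and 8.80 and 7.87 in KO, and Fcgr4, an activating Fc receptor, had 8.50 and 9.14 against 7.94 and 6.79. Neither pair of groups overlapped, yet the changes of -1.44 ± 0.27 (limma adjusted p = 0.142) and -1.46 ± 0.32 (adjusted p = 0.159) did not pass. Ccl3, a chemokine induced by LPS, had 10.71 and 11.32 against 10.28 and 9.16 (-1.30 ± 0.31, adjusted p = 0.180). Tnfsf4, which encodes OX40 ligand and gives costimulation to T cells, had 8.62 and 8.76 in WT and 9.28 and 10.83 in KO (1.36 ± 0.38, adjusted p = 0.261).

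In the cholesterol synthesis list 0 genes passed in limma in either tissue. Of its 12 measured genes 10 had a negative change in culture (median -0.30, with 42.7% of all genes negative) and 2 had one in spleen (median 0.20). At an unadjusted p under 0.05, 7 were lower in culture (3.81% of all genes) and 1 was higher in spleen, and 0 passed the test of the difference. The list mean in culture was 9.80 and 9.80 in WT and 9.69 and 9.30 in KO, so most of the gap lay in the second KO array. Msmo1, a sterol oxidase, had 11.45 and 11.37 in WT and 11.02 and 10.66 in KO culture (-0.57 ± 0.11, adjusted p = 0.149). It had 10.08 and 10.15 against 10.26 and 10.36 in spleen (0.20 ± 0.11, adjusted p = 0.906).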
